A study of Mus musculus with 10 samples.

Results

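The regions described here are the m6A peaks that the deposited peak lists place in the 5′ untranslated region (5′ UTR) of protein-coding mouse genes, or on their start codon, in liver. They were taken by the class and gene type written beside each peak, and they number 1261 of the 32804 peaks in 4 distinct lists. The day 1 list held 385 of them, the 1-week list 334, the list shared by 2 and 4 weeks 383 and the 8-week list 159. The start codon class supplied 1, 2, 8 and 0 of these, and the 5′ UTR class supplied all others. Livers came from wild-type C57BL/6J mice on day 1 and at ages of 1, 2, 4 and 8 weeks, with 2 animals per age by the methods and no treatment named. Fragmented RNA was enriched with an antibody against m6A (IP). The labels describe purified mRNA as the starting material, while the methods describe total RNA with ribosomal RNA removed after the pull-down. In all, 1 IP and 1 input sample are labelled at each age. The tables of 2 weeks and 4 weeks repeat each other in all 8765 rows, apart from the spelling of 12 gene names, and are counted once as the 2/4-week list, written below as 2/4 weeks. The tables alone do not tell which of these ages the list describes. It holds 5171 protein-coding genes with a peak. This is more than the study's gene total for 4 weeks and fewer than that for 2 weeks, so by gene count it goes with 2 weeks.

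N6-methyladenosine (m6A) is a methyl mark that the METTL3-METTL14 complex writes on adenosines of mRNA, mostly near stop codons and in 3′ UTRs, and that reader proteins use in decay, translation and splicing. The 5′ UTR is where the small ribosomal subunit scans for the start codon, and m6A placed there has been linked to translation that depends less on the cap. Antibodies against m6A also bind m6Am, a related mark next to the cap of many mRNAs, so that marks near a transcript start cannot be told apart in peak lists.

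The short sequences below come from the GENCODE M21 transcripts (GRCm38, the same assembly as mm10). Each is a stretch of 24 bases around one match of the m6A core word, written 5′ to 3′ in the sense of the mRNA, with the word GGAC in capitals. The match nearest to the middle of the earliest peak is shown. A match marks letters only and not a methylated base. The following 7 sequences are shown because each lies inside a 5′ UTR peak of all 4 lists.
Fam222a: cggcgcttccGGACgcagggatcg
Trim8: cgcggcgcgaGGACccaggctccc
Tsc22d2: gcgcgaactcGGACtttgtctttg
Snx33: cctgcccaaaGGACttggtagggc
Man2a1: tgggcgcggaGGACacgcctgccc
Zfp664: ttggttgtaaGGACactttcttct
Fam20a: ctcctccacgGGACctccccacct

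These lie at chr5:114568243-114568266 (+) for Fam222a, chr19:46502259-46502282 (+) for Trim8, chr3:58415592-58415615 (+) for Tsc22d2, chr9:56926901-56926924 (-) for Snx33 and chr17:64601326-64601349 (+) for Man2a1. The stretch of Zfp664 is at chr5:124885491-124885514 (+) and that of Fam20a at chr11:109721979-109722002 (-). All 7 are in 5′ UTR exons of the longest coding transcript. A further 4 are shown because the results on liver regulators, on immediate early genes and on peaks that reach the start codon turn on them.
Onecut1: tgtgaagactGGACtccttgcgcc
Hnf4a: gggccgggcaGGACagggggctaa
Jun: gtgaagtgacGGACcgttctatga
Hivep2: gtgttaaaatGGACaccggggaca

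The Onecut1 stretch is at chr9:74862218-74862241 (+), that of Hnf4a at chr2:163547264-163547287 (+), that of Jun at chr4:95051268-95051291 (-) and that of Hivep2 at chr10:14127652-14127675 (+). In Hivep2 the word begins on the last base of the start codon, and in Jun it begins 10 bases before the start codon.

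Each age had 1 list with no replicate, so no comparison below has a test. Intervals are 95% intervals for counting error only, by Wilson's method for shares, Newcombe's for differences of shares and order statistics for medians. They do not cover the spread between animals. Peaks of one gene share their RNA and are not independent. The fold is the deposited ratio of IP to input, which has no shared scale between lists, and sequencing depth is unknown. The lists used here are shorter at each age than the totals the study names, and a peak beyond them would count here as not recurring. A gene without a call in a list may still carry m6A, and fewer transcripts and less methylation per transcript cannot be told apart here.

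5′ UTR peaks were a small part of each list. They made up 4.04% of the 9536 protein-coding peaks at day 1 (interval 3.66% to 4.45%), 3.88% of 8600 at 1 week (3.50% to 4.31%), 4.62% of 8288 at 2/4 weeks (4.19% to 5.09%) and 3.47% of 4579 at 8 weeks (2.98% to 4.04%). The 8-week share was lower than that at 2/4 weeks (difference -1.15 points, interval -1.83 to -0.434), and the 2/4-week share was 0.737 points above that of 1 week (0.129 to 1.35). The intervals of the other 4 differences included 0. This order depended on list length: with every list cut to the 4808 peaks with the smallest p-values, the shares were 3.02%, 3.04%, 3.80% and 3.47%, so that 8 weeks was no longer lowest.

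Together the peaks lay in 714 genes, which is 9.02% of the 7918 protein-coding genes with any peak in any list. By list they lay in 358, 306, 363 and 150 genes from day 1 to 8 weeks. Most of these genes had a single 5′ UTR peak, from 91.8% at 1 week to 94.7% at 8 weeks. Jun, a component of AP-1, had the most at 8 weeks, with 3. Brd2, Armc5 and Kctd18 had 3 each at 1 week, but 2 of the Armc5 peaks lay almost on top of each other. At day 1 Ggnbp1 and Zbtb9 had 4 each. These genes overlap on the same strand, and their peaks overlapped in 4 pairs on chromosome 17, the last pair 211 and 120 nt wide. The longest coding transcript of Zbtb9 has a 5′ UTR of 215 nt, and the middles of all 4 peaks lay past its start codon. The Ggnbp1 peaks could not be placed on the longest coding transcript. In all, 12, 8, 8 and 2 peaks in the 4 lists overlapped a 5′ UTR peak of a different gene on the same strand, so the count of peaks exceeds the count of distinct regions by a little. In the 2/4-week list 20 genes tied with 2 peaks each.

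The host genes had long 5′ UTRs. On the longest coding transcript, the median 5′ UTR of a host was 490 nt at day 1 (445 to 539), 500 nt at 1 week (450 to 555), 430 nt at 2/4 weeks (376 to 488) and 508 nt at 8 weeks (399 to 593). Genes of the same lists with peaks elsewhere had medians of 200, 208, 201 and 207 nt. Among genes with any peak, 1.29% of the 1862 with a 5′ UTR under 100 nt hosted a 5′ UTR peak (0.868% to 1.91%), against 12% of the 1523 with 300 to under 500 nt (10.4% to 13.7%) and 41.4% of the 191 with 1000 nt or more (34.6% to 48.4%). A longer 5′ UTR offers more room for a call, and how much of the difference this makes was not tested.

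**Figure D1:**
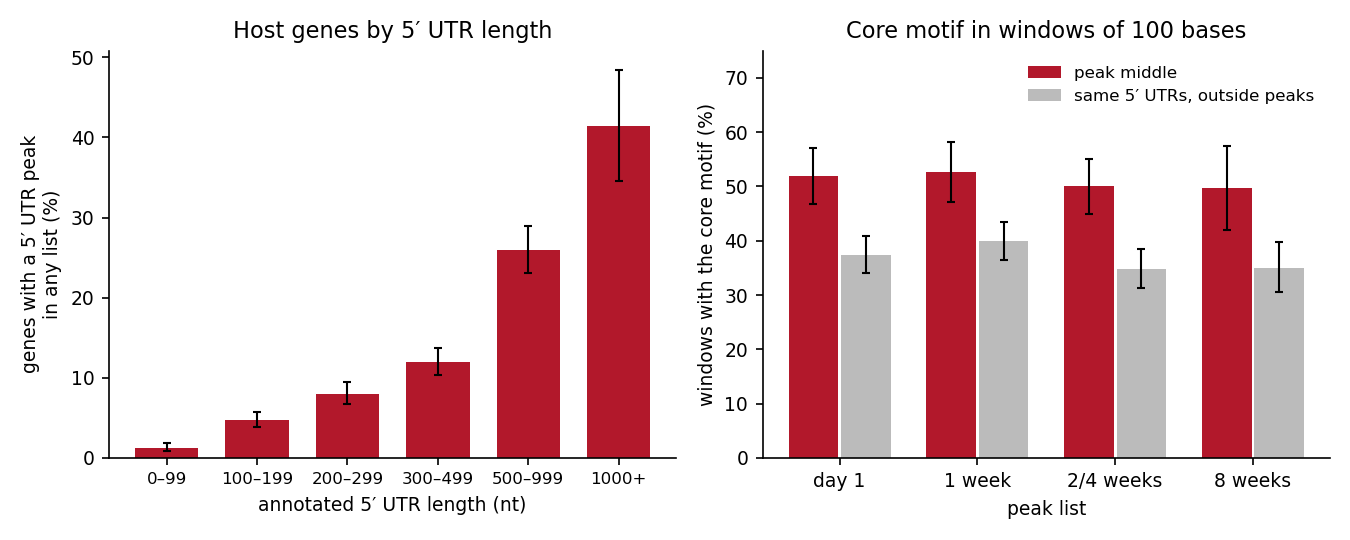
Left, share of genes with any peak that had a 5′ UTR peak in any list (y axis, %) by annotated 5′ UTR length in nt (x axis). Right, share of 100-base windows holding the core word (y axis, %) for 5′ UTR peak middles (red) and for peak-free windows of the same 5′ UTRs (grey) in each list. Bars are shares and whiskers 95% Wilson intervals; hosts go from 1.29% to 41.4% with length, and the red bars lie between 49.7% and 52.7% against 34.7% to 39.9% for the grey bars.

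Hosts of a 5′ UTR peak often had other peaks too. Of the day 1 hosts, 37.4% also had a peak in the coding sequence (CDS) and 33.2% one in the 3′ UTR, while 25.3% of the genes with a 3′ UTR peak had one in the CDS and 25.7% of those with a CDS peak had one in the 3′ UTR. The other genes of the day 1 list all have a peak elsewhere by definition. Of these, 49.6% had one in the CDS and 50.7% one in the 3′ UTR. A 5′ UTR peak was the only class in 40.5% of hosts at day 1 (35.5% to 45.7%), 44.1% at 1 week (38.7% to 49.7%), 41.9% at 2/4 weeks (36.9% to 47.0%) and 52.0% at 8 weeks (44.1% to 59.8%). For genes with a CDS peak the same share was 69.0%, 69.7%, 70.1% and 79.9%. The 5′ UTR was thus the sole marked region less often than the CDS was in each list. These shares also depend on how common each class is, as 6.09% of the day 1 genes with a peak hosted a 5′ UTR peak. How much of the gap this makes was not tested.

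The middles of most peaks lay in the first exon, but how much of all 5′ UTR sequence lies there was not measured. The middle of 372, 325, 375 and 156 peaks could be placed on the longest coding transcript, and 80.6%, 80.0%, 83.2% and 85.9% of these were in exon 1. For 360, 317, 362 and 154 of them the middle was in the 5′ UTR of that transcript, and the median distance from the transcript start was then 258, 299, 223 and 238 nt. The median distance to the start codon was 188, 171, 160 and 187 nt. Of the peaks wholly on the transcript, 34.6%, 35.3%, 34.3% and 33.8% reached across the start codon into the CDS, and 18.7%, 18.5%, 23.3% and 20.4% began within 30 nt of the transcript start. In the latter position m6A cannot be told apart from m6Am. The annotated first base was A in 32.1% of the 159 hosts with such a peak (25.3% to 39.7%), 28.1% of the 552 other hosts (24.5% to 32.0%) and 25.3% of the other genes with a peak (24.3% to 26.3%).

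**Figure D2:**
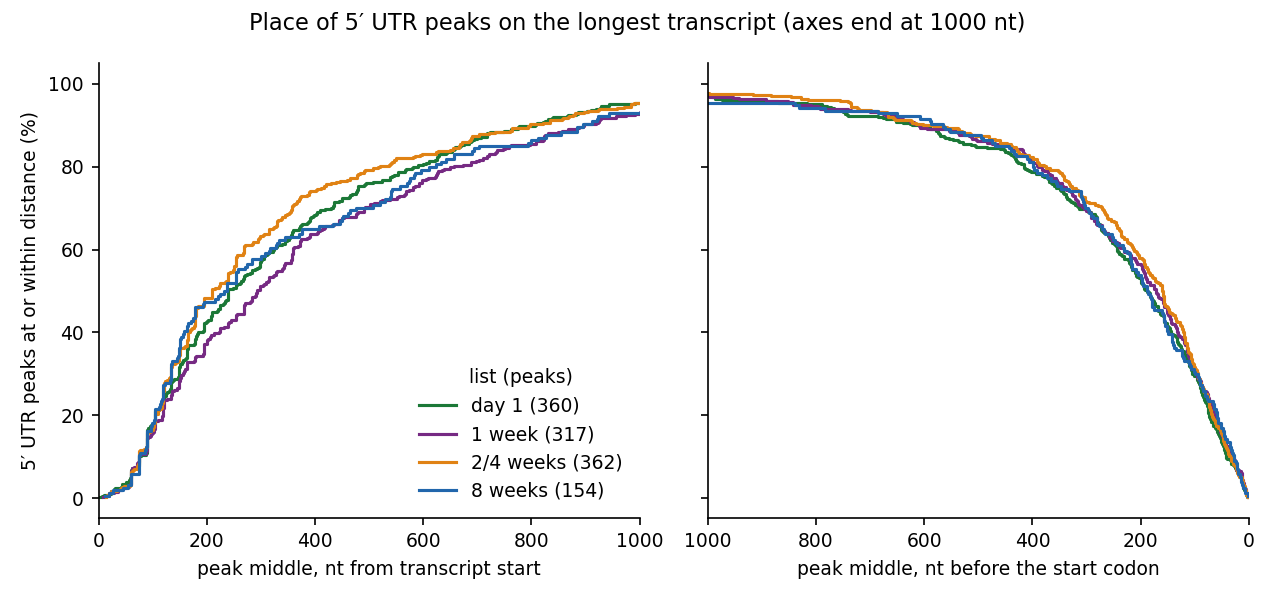
Cumulative share of 5′ UTR peaks (y axis, %) by distance of the peak middle from the transcript start (left x axis, nt) and before the start codon (right x axis, nt), 1 line per list, with the number of peaks in the key. Both axes end at 1000 nt; medians are 258, 299, 223 and 238 nt from the start and 188, 171, 160 and 187 nt before the start codon.

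The peaks were narrow. Their median width, summed over exon blocks, was 210 nt at day 1 (181 to 211), 181 nt at 1 week (181 to 210), 181 nt at 2/4 weeks (181 to 210) and 180 nt at 8 weeks (180 to 181). CDS peaks had medians of 300, 270, 270 and 181 nt, and 3′ UTR peaks 270, 240, 211 and 181 nt. The widest peaks measured 1678, 1139, 779 and 630 nt, and the widest of all lay in Kctd18 at day 1. In lists of equal length, kept by p-value, the medians were 358, 299 and 271 nt in the first 3 lists, beside 180 nt at 8 weeks. Widths of 500 nt or more, counted here for 5′ UTR peaks only, occurred in 31, 25, 26 and 3 peaks. Between 91.2% and 94.3% of the widths in a list were within 1 nt of a multiple of 30 nt, so the median moves in steps of the caller's windows. Few peaks joined exons: 18, 10, 10 and 6 had more than 1 block, or 4.68%, 2.99%, 2.61% and 3.77%. The same shares were 7.42%, 4.47%, 6.05% and 3.99% of CDS peaks and 1.40%, 1.13%, 1.00% and 0.391% of 3′ UTR peaks.

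**Figure D3:**
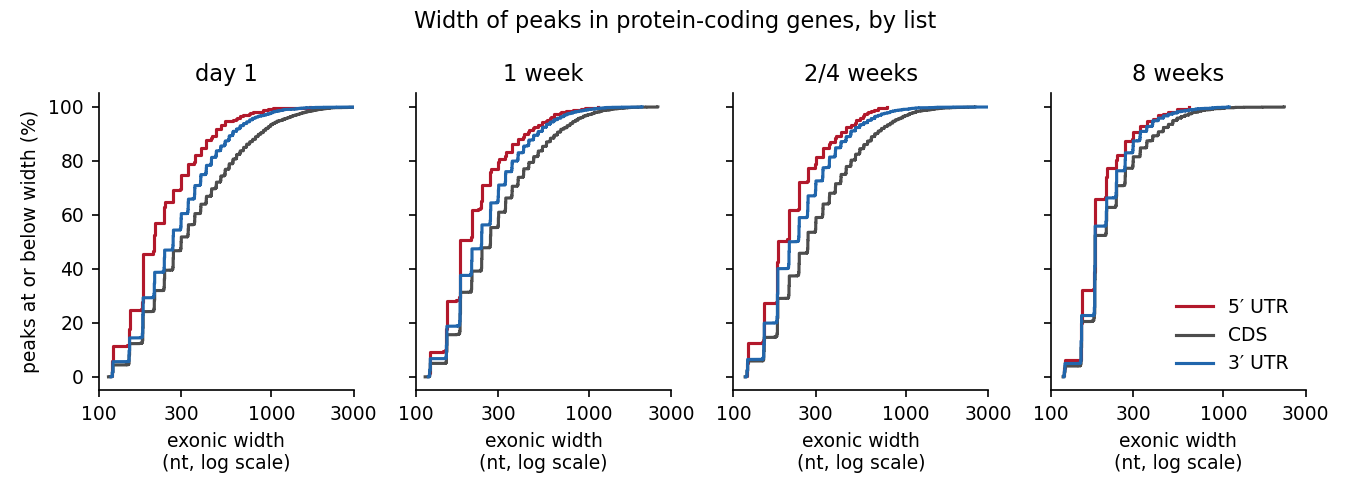
Cumulative share of peaks (y axis, %) by exonic width in nt (x axis, log scale) for peaks in the 5′ UTR (red), CDS (black) and 3′ UTR (blue) of protein-coding genes, 1 panel per list. The 5′ UTR line lies left of the others at day 1 (median 210 nt against 300 and 270 nt) and close to them at 8 weeks (180 against 181 and 181 nt).

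Folds of 5′ UTR peaks were lower than those of other classes in the first 3 lists. The median fold was 13.3 at day 1 (12.6 to 15.4), 13.8 at 1 week (12.4 to 16.7), 13.5 at 2/4 weeks (12.3 to 15.8) and 16.9 at 8 weeks (14.1 to 21.2). The medians of CDS peaks were 22.4, 23.3, 21.1 and 19.7, and those of 3′ UTR peaks 18.2, 18.9, 15.8 and 18.3. The interval at 2/4 weeks reached the 3′ UTR median, and that at 8 weeks held both other medians. A fold under 3, counted here for 5′ UTR peaks only, was seen in 23, 12, 8 and 5 peaks. Among them were peaks of liver products: Apob, the protein of very low density lipoprotein, had a fold of 1.83 at day 1 with a log10 false discovery rate (FDR) of -88.1, and Fabp1, the liver fatty acid carrier, had 2.39 with -287. Peaks with an FDR over 5% made up 2.08%, 1.50%, 2.87% and 15.1% of the 5′ UTR peaks, beside 1.23%, 1.03%, 2.03% and 13.5% of all protein-coding peaks. The 8-week list thus had the largest share of weak calls both in the 5′ UTR and over all classes.

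The core word was more frequent in the peaks than beside them. Windows of 100 bases at the peak middle held GGAC in 187 of 360 cases at day 1 (51.9%), 167 of 317 at 1 week (52.7%), 181 of 362 at 2/4 weeks and 76 of 153 at 8 weeks (49.7%). Windows of the same 5′ UTRs outside all peaks held it in 37.3%, 39.9%, 34.7% and 35.0%, and all 17965 5′ UTR windows of genes with a peak held it in 39.1%. The differences were 14.6 points (8.42 to 20.7), 12.8 (6.21 to 19.2), 15.3 (9 to 21.5) and 14.7 (5.48 to 23.7). The search was made on the mRNA strand. The longer word GGACT, which contains the first, was found in 20.6%, 26.5%, 20.7% and 21.6% of peak windows and in 11.3%, 13.7%, 10.7% and 11.1% of the windows outside.

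Base composition and other words did not show such a gap. The control word CAGG was held by 44.4%, 44.8%, 47.2% and 49.0% of peak windows and by 45.0%, 46.8%, 47.0% and 46.6% of the others, with intervals of the difference that included 0 in every list. The same held for ATG, the start codon word, in 47.8% against 45.4% at day 1 (difference interval -3.76 to 8.60). GC content was 60.0%, 58.7%, 62.3% and 59.4% in peak windows and 59.8%, 59.5%, 60.5% and 57.8% outside. CDS peak middles held GGAC in 47.2% of cases at day 1 (difference 4.78 points, -0.584 to 10.1), and the interval of this difference included 0 in every list. Against 3′ UTR peak middles GGAC was more frequent in 5′ UTR peaks by 6.51 points at 1 week (0.730 to 12.2) and 7.94 at 2/4 weeks (2.52 to 13.4), while the intervals at day 1 and 8 weeks included 0. GGACT was more frequent than in CDS peak middles by 4.50 points at day 1 (0.487 to 9.10), 10 at 1 week (5.33 to 15.3) and 4.65 at 2/4 weeks (0.608 to 9.26), and at 8 weeks the interval included 0. By fold, GGAC stood in 44.9% of day 1 windows with a fold under 10 (36.9% to 53.3%) and in 61.0% of those with a fold of 30 or more (50.2% to 70.8%). The same pair was 41.7% and 58.0% at 1 week, 41.2% and 62.8% at 2/4 weeks and at 8 weeks 22 of 44 windows and 61.2%, where the middle class of folds was lowest at 40.0%.

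Peaks of different lists were joined into loci when they lay in the same gene and strand and shared at least 1 base, directly or through a further peak, which gave 778 loci. Most loci, 481 or 61.8%, were found in 1 list only, 176 in 2 lists, 82 in 3 and 39, or 5.01%, in all 4. Over all protein-coding peaks joined in the same way within their class, 49.2% of 15227 loci were found in 1 list and 11.1% in all 4. For CDS loci the same shares were 46.0% and 12.2%, and for 3′ UTR loci 51.2% and 10.8%. Loci of 1 list only numbered 150 at day 1, 107 at 1 week, 154 at 2/4 weeks and 70 at 8 weeks. By gene, 40 of the 714 hosts had a 5′ UTR peak in all 4 lists, and 110 had one in all lists when the short 8-week list was set aside. The same gene counts are not given for other classes, so these have no background here. The commonest shared pattern was day 1 with 1 week and the 2/4-week list, with 66 loci. The median of the highest fold at a locus was 10.2 for loci of 1 list, 19.8 for 2, 49.5 for 3 and 89.4 for 4, which is partly set by taking the highest of more values.

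5′ UTR peaks recurred between ages less often than peaks of other classes. At least 1 other list held an overlapping 5′ UTR peak for 61.0% of them at day 1 (56.1% to 65.8%), where the background over all protein-coding peaks and their own classes was 69.4%. The share was 67.7% at 1 week beside a background of 82.2%, 59.8% at 2/4 weeks beside 78.4%, and 56.6% at 8 weeks beside 72.2%. Against CDS peaks the difference was -9.80 points at day 1 (-14.9 to -4.86), -16.1 at 1 week (-21.4 to -11.1), -24.6 at 2/4 weeks (-29.7 to -19.7) and -18.4 at 8 weeks (-26.4 to -10.7). Against 3′ UTR peaks it was -7.83, -14.1, -13.2 and -13.6 points, and no interval included 0. All 3 other lists overlapped 10.1%, 11.7%, 9.92% and 25.2% of the 5′ UTR peaks, beside 18%, 20.2%, 21% and 40.3% of all protein-coding peaks.

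**Figure D4:**
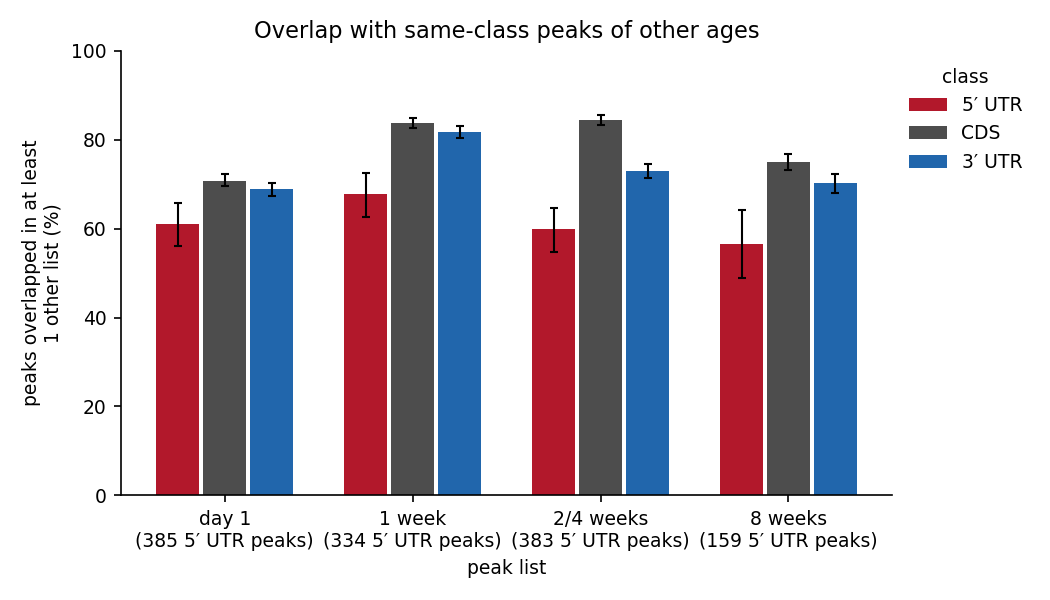
Share of peaks overlapped by a peak of the same class in at least 1 other list (y axis, %), by list (x axis) and class (red 5′ UTR, black CDS, blue 3′ UTR), with 95% Wilson intervals as whiskers. The red bars, 61.0%, 67.7%, 59.8% and 56.6%, are the lowest of the 3 in each list.

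Within classes of fold the lists differed. Among day 1 peaks with a fold from 10 to 30, 64.9% of 5′ UTR peaks (56.9% to 72.1%) and 61.0% of CDS peaks (58.5% to 63.3%) recurred, and with a fold of 30 or more 85.7% (77.1% to 91.5%) and 91.8% (90.4% to 92.9%). At folds from 10 to 30 the 5′ UTR share was below that of CDS peaks in the other 3 lists, with 64.8% (56.6% to 72.2%) against 78.8% (76.8% to 80.7%) at 1 week, 59.9% (52.2% to 67.1%) against 83.5% (81.4% to 85.3%) at 2/4 weeks and 31 of 62 peaks (37.9% to 62.1%) against 74.9% (71.7% to 77.8%) at 8 weeks. At folds of 30 or more the gap was smaller at 1 week (92.0%, 84.3% to 96.0%, against 95.1%) and 2/4 weeks (87.9%, 79.6% to 93.1%, against 94.8%). At 8 weeks it was 66.0% (52.2% to 77.6%) against 82.1%. Under a fold of 10 the pairs were 41.8% and 47.6% at day 1, 51.4% and 69.1% at 1 week and 40.0% and 68.3% at 2/4 weeks. At 8 weeks that pair was 55.3% (41.2% to 68.6%) and 65.3%. Counting overlap with a peak of any class, 65.5%, 71.9%, 65.0% and 59.7% of 5′ UTR peaks recurred, against 72.6%, 85.6%, 86.5% and 77.2% of CDS peaks. The further overlaps were mostly with CDS peaks, such as 15 day 1 peaks that met only a CDS peak at 1 week.

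Between pairs of lists, 43.4% of day 1 peaks were overlapped at 1 week, 43.6% at 2/4 weeks and 13.8% at 8 weeks (10.7% to 17.6%). The same shares over all protein-coding peaks and their own classes were 57.2%, 51.8% and 23.7%. In the other direction 35.2% of the 8-week peaks were overlapped at day 1 (28.2% to 42.9%), 39.0% at 1 week (31.8% to 46.7%) and 43.4% at 2/4 weeks (35.9% to 51.2%), beside 54.7%, 57.5% and 57.1% of all protein-coding peaks. The low share toward 8 weeks goes with the shorter list, which held 159 peaks to overlap with. Where a locus was found in both day 1 and 1 week, 44.2% of 165 loci had the same 5′ edge and 18.8% the same edges on both sides. This pair had the highest shares. Between the other pairs of lists they ran from 27.1% to 39.2% and from 6.78% to 14.9%. Widths move in steps of the caller's windows, and edges of other classes are not given, so these shares have no background here.

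At 37 of the 39 loci found in all lists at least 1 base lay under a peak of every list, and at Tulp4 and Jun no base did. The peaks with the highest fold of each list shared a base at 33 loci. Among the 39, widths at 8 weeks were lower. Their median width was 328 nt at day 1 (240 to 480), 300 nt at 1 week, 299 nt at 2/4 weeks and 209 nt at 8 weeks (180 to 241), and the 8-week peak was narrower than the day 1 peak at 31 loci, equal at 4 and wider at 4. Widths at 8 weeks were lower in the other classes too. Over all CDS peaks the median went from 300 nt at day 1 to 181 nt at 8 weeks. Over all 3′ UTR peaks it went from 270 to 181 nt. The median fold at the 39 loci was 37.1, 50.9, 58.0 and 23.3. The 10 loci with the highest of their lowest folds were those of Fam222a, Trim8, Tsc22d2, Snx33, Spg20, Man2a1, Zfp664, Fam20a, B430305J03Rik and Brd2.

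At Trim8, an E3 ubiquitin ligase, the highest fold was 89.0 at day 1, 665 at 1 week, 86.7 at 2/4 weeks and 47.9 at 8 weeks. The day 1 peak there covered 898 nt, while at 1 week and at 8 weeks the region was split into 2 peaks. Spg20, which encodes spartin, a protein of endosomes and lipid droplets, had the most even shape of the 10: its peak was 240 nt wide with the same edges at day 1, 1 week and at 2/4 weeks, and 210 nt wide at 8 weeks. Its folds were 90.4, 236, 61.5 and 38.1. Man2a1, the Golgi mannosidase of N-glycan trimming, had folds of 37.1, 42.2, 225 and 76.9.

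Snx33, a sorting nexin of endocytosis, had 79.9, 130, 80.2 and 39.5, with the peak middle 110 to 169 nt before the start codon of a 5′ UTR of 1588 nt. Fam20a, a pseudokinase partner of the kinase that phosphorylates secreted proteins, had 47.6, 207, 82.6 and 30.1. Brd2, a bromodomain reader of acetylated histones, had 149, 26.9, 75.5 and 42.3, and its locus joined a 750 nt peak at day 1 with pairs of shorter peaks at 1 week and at 2/4 weeks. The zinc finger gene Zfp664 differed in order, with 31.5, 69.4, 62.6 and 235. At B430305J03Rik, where an exon of another gene lies on the opposite strand, the folds were 125, 121, 114 and 29.6. Fam222a had 96.9, 120, 189 and 62.0. Tsc22d2 had 72.2, 258, 138 and 45.1, but its 8-week peak of 45.1 lay further upstream, and at the site that all lists shared the 8-week fold was 5.73. In Brd2 the 2/4-week fold at the shared site was 18.2.

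**Figure D5:**
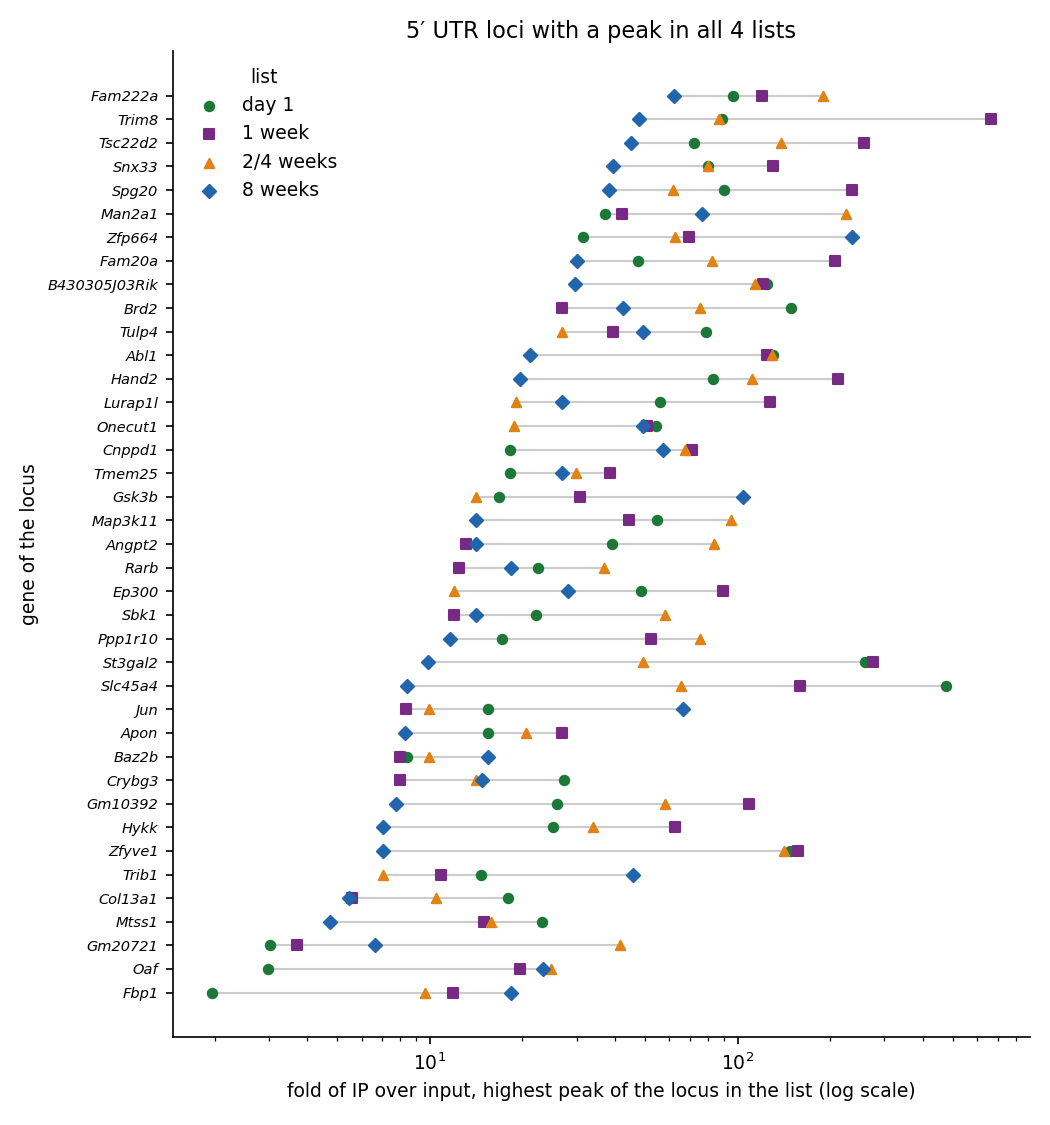
Fold of IP over input (x axis, log scale) of the highest 5′ UTR peak at each of the 39 loci found in all 4 lists (y axis, gene names, ordered by the lowest of the 4 folds), with 1 marker per list and a grey line over their range. The lowest fold goes from 62.0 at Fam222a to 1.96 at Fbp1, and folds of different lists have no common scale.

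Other genes with a locus in all lists included signalling kinases (Abl1, Gsk3b, Map3k11), the retinoic acid receptor Rarb, the histone acetyltransferase Ep300, the vessel growth factor Angpt2 and the pseudokinase Trib1. Fbp1, a rate-setting enzyme of gluconeogenesis, had the lowest fold of the 39, with 1.96 at day 1, 11.9 at 1 week, 9.64 at 2/4 weeks and 18.3 at 8 weeks. Slc45a4, a membrane transporter, had the widest range as a ratio of folds, from 476 at day 1 to 8.46 at 8 weeks.

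Loci of 1 list only included strong ones. At day 1 the highest folds were those of the zinc finger factor Hivep2 (126), the DNA repair scaffold Slx4 (101), the heparan sulphate polymerase Ext1 (60.9) and Fam78a (58.1). At 1 week they were the histone acetyltransferase Kat6a (213), the vesicle protein Lrba (135), the guanine nucleotide exchange factor Arhgef12 (96.0) and the Cdc42 effector Cdc42ep2 (42.9). The 2/4-week list had Elmsan1 (97.2), the kinase Camk1d (82.0), Smim19 (48.6) and Fau (46.3), which encodes a ribosomal protein fused to a ubiquitin-like domain. At 8 weeks they were Zfp260 (161), the phosphoinositide 3-kinase regulatory subunit Pik3r1 (136), the membrane linker radixin, Rdx (111), and Hexim1 (107), an inhibitor of the elongation kinase P-TEFb. The middle of the Kat6a peak lay in the CDS of the longest transcript. The Slx4 peak could not be placed on the longest coding transcript. These 16 were picked for being found once, so their absence from the other lists is no finding. Found once counts 5′ UTR peaks only, so a peak of another class may lie at the same site in another list.

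Of 45 liver transcription factors with any peak, 10 had one in the 5′ UTR (22.2%, 12.5% to 36.3%), beside 9.02% of all genes with a peak. Onecut1 (HNF6), a factor of hepatocyte and bile duct development, was in all 4 lists, with folds of 54.4, 50.9, 18.7 and 49.4 and widths of 358, 626, 597 and 269 nt. The nuclear receptor Nr2f6 had 70.1 and 83.6 at day 1 and 1 week, and at 8 weeks no call. In the 2/4-week list its peak lay nearer the transcript start, and its fold was 6.44. Prox1, needed for hepatoblast migration, had 15.8, 43.1 and 18.1 in the first 3 lists. An exon of a different gene lies opposite the Prox1 peaks.

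For Hnf4a, a main regulator of hepatocyte genes, a 5′ UTR peak was called at 8 weeks only, at chr2:163547211-163547391 (+), where the fold was 5.96 and the log10 FDR -23.5. Its middle was 31 nt before the start codon. Cited2, a coactivator, was also called at 8 weeks only (55.0), and Gata4, an early endoderm factor, at day 1 only (23.4). Klf9, a hormone-responsive factor, had peaks at 2/4 weeks (14.1 and 8.78) and at 8 weeks (16.2). Tbx3, a factor of hepatoblast growth, had folds of 13.1 at 1 week, 14.6 and 11.1 at 2/4 weeks and 52.2 at 8 weeks. Nr1i3, the xenobiotic receptor CAR, had 2.92 at day 1 and 14.6 at 2/4 weeks, and Zhx2, a repressor of fetal liver genes, had 11.1 at 2/4 weeks.

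Of 18 genes of the m6A machinery with a peak, 3 had one in the 5′ UTR (16.7%, 5.84% to 39.2%), each in 1 list: the reader Igf2bp3 at day 1 (6.31), Mettl4 at 1 week (6.54) and the reader Ythdf2 at 2/4 weeks (8.78). Signalling genes of insulin and growth had 7 of 29 (24.1%, 12.2% to 42.1%). Among them the insulin receptor substrate Irs1 had 77.1 at day 1, 113 at 1 week and 42.7 at 2/4 weeks, and the receptor Insr had 6.31 at day 1 and 17.0 at 2/4 weeks. Igf1 had 12.6 at day 1 and 3.82 at 1 week, in overlapping peaks whose middles lay 89 and 253 nt before the start codon.

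Clock genes had 5 of 15 (33.3%, 15.2% to 58.3%). Bhlhe40, a repressor, had 3.95, 16.8 and 104 in the first 3 lists, Nr1d1 (REV-ERB alpha) had 11.6 at 1 week and 21.2 at 8 weeks, and Cry1 had 12.7 at 8 weeks with a log10 FDR of -0.758, which is over 5%. Immediate early genes had 5 of 24 (20.8%, 9.24% to 40.5%). Jun had a locus beside the start codon at 1 week (48.7), at 2/4 weeks (303) and at 8 weeks (39.5). Further upstream in Jun every list had peaks, with highest folds of 15.4, 8.36, 9.95 and 66.3, but these lay at different sites: the 1-week and the 2/4-week peak shared no base, and the 8-week peak of 66.3 overlapped neither the day 1 nor the 2/4-week peak. A further 8-week peak, with 32.4, overlapped both of the latter. Junb had 18.7 at 2/4 weeks and 30.1 at 8 weeks, and Egr1 had 11.1 and 21.2 in the same lists. Chromatin regulators had 9 of 61 (14.8%, 7.96% to 25.7%), with Ep300 at 48.5, 89.4, 12 and 28.2 and the histone demethylase Kdm5a at 39.9, 24.7 and 30.4 in the first 3 lists. Cell cycle genes had 4 of 25 (16.0%), among them the cyclin-dependent kinase inhibitor Cdkn2c with up to 81.3 at day 1 and cyclin D1, Ccnd1, with 9.11 at day 1 and 16.0 at 2/4 weeks. E2f7, a repressor of the cycle, had 18.9 at 1 week.

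For groups tied to translation, every interval held the 9.02% of all genes. Stress response genes had 3 of 20 (15.0%, 5.24% to 36.0%), namely Amd1 (22.7 and 10.5 at day 1 and at 2/4 weeks), Atf5 (5.73 at 1 week) and Vegfa (82.5 at 8 weeks). Heat shock proteins and chaperones had 2 of 19 (10.5%), Dnajb1 at 1 week (6.54) and Cct4 at 2/4 weeks (11.7). Terminal oligopyrimidine mRNAs, which encode the translation apparatus, had 2 of 25 (8.00%), Rpl38 at day 1 and 1 week (2.28 and 8.00) and Fau. Initiation factors had 2 of 32 (6.25%), Eif4g3 (23.8 at day 1 and 9.37 at 2/4 weeks) and Eif6 (19.9 at 2/4 weeks).

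Among metabolic groups the shares ran from 3.92% to 11.5%, and every interval held 9.02%. Drug metabolism genes had 2 of 51 (3.92%, 1.08% to 13.2%), Cyp2c70 (1.85 at 1 week) and Cyp3a13 (6.73 at 2/4 weeks). Fatty acid genes had 2 of 30 (6.67%), including Fabp1. Cholesterol and bile acid genes had 3 of 26 (11.5%), the squalene synthase Fdft1 (8.41 at day 1 and 9.95 at 2/4 weeks), Cyp7b1 (3.42 at 8 weeks) and the flippase Atp8b1 (8.06 at 1 week and 1.68 at 2/4 weeks). Of 17 hepatocyte markers with any peak 1 had a 5′ UTR peak, Apob (5.88%). The lists hold no expression values, so the tissue label was not checked further.

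Markers of other liver cells had a 5′ UTR peak in 1 of 9 for endothelial cells (Bmpr2, 11.1%), 1 of 10 for Kupffer cells (Vsig4), 2 of 7 for stellate cells (Hand2 and Lrat, 28.6%, 8.22% to 64.1%) and 2 of 23 for erythroid and blood cells (Ebf1 and Tfr2, 8.70%). Every interval held the 9.02% of all genes. Hand2, a stellate cell factor, was in all 4 lists with folds of 83.4, 212, 111 and 19.7, over an exon of another gene on the opposite strand. As the samples were whole liver, fewer cells of a type and less RNA per cell cannot be told apart. The gene groups also differed in 5′ UTR length. The median was 71.0 nt for drug metabolism genes, 131 nt for hepatocyte markers, 284 nt for liver transcription factors, 272 nt for insulin and growth genes and 320 nt for clock genes, beside 205 nt for all genes with a peak. The part of this length in the shares was not tested.

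Overlap with neighbouring genes was commoner in the 5′ UTR than in the CDS. Exons of another gene lay under 17.1%, 19.8%, 14.1% and 20.1% of the 5′ UTR peaks, against 6.98%, 5.88%, 6.63% and 5.89% of CDS peaks. Most of these were on the opposite strand, at 14%, 15.0%, 10.4% and 17.0%, and 22, 27, 18 and 10 peaks faced another called peak on that strand. The sources used here do not say how strand entered the counting, so reads of such pairs cannot be told apart. Besides those noted above, named peaks opposite an exon of another gene included Bhlhe40 at 1 week and 2/4 weeks, all those of Kdm5a, and Smim19. So did the 8-week Jun peak of 66.3, the 2/4-week Tbx3 peak of 14.6 and the most upstream Brd2 peaks at day 1 and 1 week. The Ep300 locus of all 4 lists lay on an exon of another gene on the same strand. Without the peaks on exons of another gene, 60.5%, 67.9%, 58.4% and 57.5% recurred in another list, close to the values with them.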

How the data were processed

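m6A-RIP sequencing of wild-type mouse liver RNA was deposited as 1 peak list per age, from 2 animals per age by the study's methods. The sources used here do not say how these were pooled. The authors aligned reads to mm10 with HISAT2, called peaks of IP over input with exomePeak, kept the longest isoform and named HOMER for motifs. The authors deposited a p-value, a fold (ratio of IP to input) and a log10 FDR, used as a score, for each peak. No counts or depths were used. The 4-week table was left out as a repeat. Read from 0, 45 of 48 block junctions fell on exon edges, and read from 1, 0 did, so spans were read from 0. Coordinates are printed from 1.

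Overlap asked for 1 base of the spans on the same strand. Positions and sequences use GENCODE M21; gene names turned into dates were restored by Ensembl identifier. Overlap, position and interval functions were tested on simulated data. Python 3.11.15, scipy 1.17.1 and matplotlib 3.10.9 were used.

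The peaks, the 19 gene lists and the rules were chosen with earlier results of these data known. Named genes are the 10 loci in all lists with the highest of their lowest folds, 4 loci of each single list, all hosts among liver transcription factors and m6A machinery, up to 3 of each other gene list, and the genes with most peaks; Abl1, Gsk3b, Map3k11, Rarb, Angpt2, Trib1, Fbp1, Tulp4 and Slc45a4 were chosen after their values were seen. Alternatives were cuts on FDR (5%), fold (at least 5) and list length, other overlap, class, transcript and window rules, and, added after seeing the data, lists left out and peaks on exons of another gene left out. A gene of the fatty acid list is not reported by name here.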

Additional observations from a re-analysis of the deposited data

How the results depend on the processing

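Of 91 alternative values, 68 stayed within the counting interval of the value reported (a count within 1.5 times) and 23 moved; none has a test. With lists of equal length, kept by p-value, the 5′ UTR share was 3.02% at day 1, 3.04% at 1 week and 3.80% in the 2/4-week list, and the median width 358, 299 and 271 nt. The share recurring in another list was then 69.6% at day 1, 78.6% at 1 week, 62.6% at 2/4 weeks and 42.1% at 8 weeks. The cause was not tested. With an overlap of 50% of both peaks, 53.2%, 61.1%, 53.8% and 44.7% recurred from day 1 to 8 weeks. With any class in the other list 65.0% recurred in the 2/4-week list. Without the 2/4-week list 46.0% recurred at day 1, 57.5% at 1 week and 46.5% at 8 weeks, and without the 8-week list 110 genes in place of 40 had a 5′ UTR peak in every list. For these alternatives no value over all protein-coding peaks or genes is given, so it is unknown whether the changes are particular to the 5′ UTR. Without peaks on exons of another gene the 1-week share was 3.41%. Over whole peaks GGAC was found in 76.1%, 75.9%, 71.7% and 67.4%. No paired analysis was possible because each age had 1 list. Depth is unknown, so absent calls carry no limit.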
